A study of Rattus norvegicus with 8 samples.

Results

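Cells of the rat glioma line C6 that carry fast in their array title were compared with those titled slow, over both sets of cells that the series holds. The comparison used all 8 of 8 arrays, chosen by title alone: 4 fast arrays (2 of C6, 2 of C6SPGFP) against 4 slow ones (2 of C6, 2 of C6SPGFP). Only a change that ran in the same direction within each set was counted. C6 is an established line from a chemically induced rat brain tumour, and total RNA of each sample was hybridised to an oligonucleotide array under the heading of migration. The labels give no treatment, time or genotype, and they explain neither the name C6SPGFP nor how fast and slow cells were told apart. Both sets come from 1 line, and the labels do not say that the 2 arrays of a group were separate cultures, so the p-values cover only the spread between these samples, which can be technical.

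A migrating glioma cell holds on to the matrix around it, pulls itself forward through actin and releases its rear. Integrins and lectins on the cell surface, laminins and tenascins in the matrix, and the actin-nucleating complexes inside the cell all take part in these steps. Glioma cells also vary in how glial they remain, and the genes of glial identity are read by transcription factors that can change while the cells keep dividing.

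Each array carried 8799 probe sets, 59 of them controls. As deposited, signals had a 2% trimmed mean of 100.1 to 105.8 on 7 arrays but of 500.5 on C6SPGFP fast replicate 1, so all arrays were put on a common scale by quantile normalisation. Levels below are these normalised signals, in units of intensity, and a level of 1 gene is not set against that of another. Changes are differences of log2(signal + 8), fast minus slow, so that a fold is a ratio of signal plus 8 and understates the change of dim genes. The 6684 probe sets with a mean signal of at least 8 were fitted with limma, with speed and set as additive terms, and p-values were adjusted over all of them. Control ratios of the 3' to the 5' end of a transcript, which read RNA integrity, ranged from 1.006 to 1.027 on C6 fast and from 1.022 to 1.056 on C6 slow arrays for Gapdh, and from 0.96 to 0.994 on C6SPGFP fast and from 0.972 to 0.995 on C6SPGFP slow arrays. For actin they were 1.025 to 1.052 on C6 fast and 1.011 to 1.025 on C6 slow arrays, and 1.041 to 1.052 on C6SPGFP fast and 1.123 to 1.135 on C6SPGFP slow arrays, which did not overlap; the part of RNA integrity in the changes was not tested.

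Signals of fixed cell type markers are described by group, which does not establish a glial identity of the line. Of 10 astroglial markers on the array, Gfap not among them, 8 reached a mean signal of 8 (Aqp4 and Fabp7 did not). The summed signal of the 10 was 5152 to 5220 in C6 slow, 3226 to 3685 in C6 fast, 6080 to 6293 in C6SPGFP slow and 6519 to 6549 in C6SPGFP fast cells. Vim gave the largest part of that sum on every array. Vim, the intermediate filament vimentin, read 3082 and 2681 in C6 slow, 2594 and 2723 in C6 fast, 3256 and 3102 in C6SPGFP slow and 3602 and 3831 in C6SPGFP fast cells; its change of 0.06 ± 0.09 (SE) did not pass (limma adjusted p = 0.856). Of 8 microglial and haematopoietic markers 4 stayed below a mean of 8, among them Itgam and C1qb, and the sum of the list lay between 148 and 192 on every array. Of 8 endothelial and mural markers 2 stayed below 8 (Kdr and Des), with sums from 400.6 to 834, and of 10 fibroblast markers 2 did (Thy1 and Postn), with sums from 2707 to 4081. In such bulk RNA a smaller number of cells with a transcript and less of it per cell cannot be told apart.

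In all, 35 of 6684 probe sets (0.524%) passed at an adjusted p under 0.05, and each of them had the same sign in both sets. Of these, 22 (0.329%) were higher and 13 (0.194%) lower in fast cells. A single gene symbol was carried by 30 of them, for 18 genes that rose and 9 that fell. The log2 changes ran from 0.718 to 3.77 among the increases and from -1.06 to -2.89 among the decreases, with adjusted p-values from 0.000273 to 0.0496. Fast and slow arrays did not overlap within either set for any of the 35, and for 14 of the increases and 10 of the decreases all 4 fast arrays lay above or below all 4 slow arrays, as held for 131 (1.96%) and 135 (2.02%) of all probe sets tested. Over all probe sets tested, 375 (5.61%) were higher and 391 (5.85%) lower without overlap in both sets, beside 344 (5.15%) that were higher in C6 fast and lower in C6SPGFP fast cells and 322 (4.82%) with the reverse pattern. The 4 counts were of similar size, and the signs of all probe sets matched in 50.3%. Without C6 fast replicate 1 the counts called were 12 higher and 3 lower, and without C6 fast replicate 2 they were 14 and 6. The decreases called also dropped to 5 without replicate 2 of C6SPGFP slow or of C6SPGFP fast, to 6 without C6 slow replicate 2 and to 8 without C6SPGFP fast replicate 1.

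**Figure D1:**
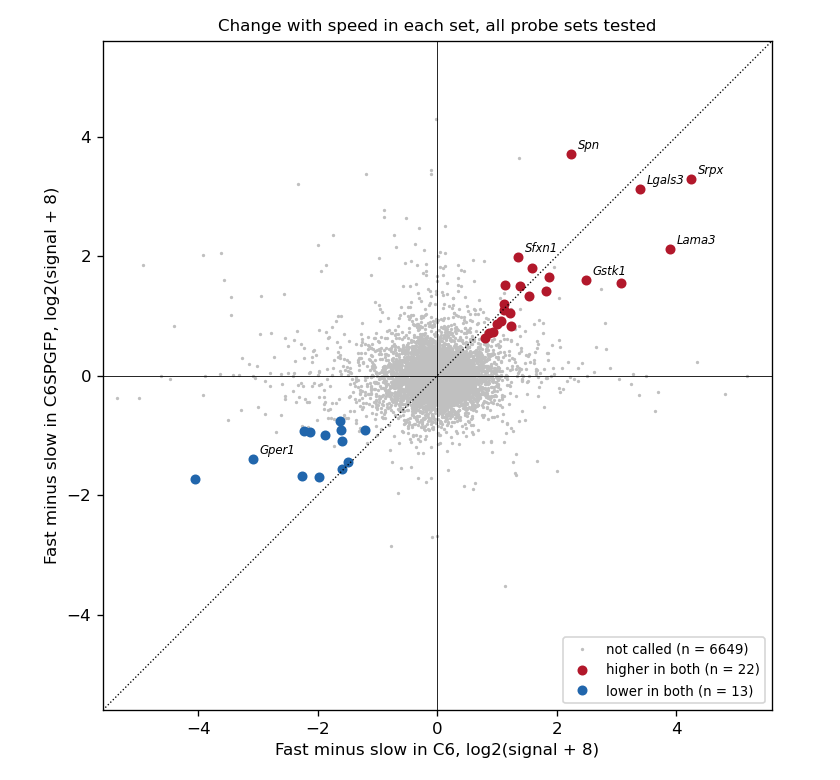
Each point is 1 of 6684 probe sets; the horizontal axis gives fast minus slow in C6 and the vertical axis fast minus slow in C6SPGFP, both as log2(signal + 8), and the dotted line marks equal change. The 22 called increases (red) and 13 called decreases (blue) lie in the upper right and lower left, where the signs match; the 4 most extreme named increases are Srpx, Lgals3, Lama3 and Spn, and the other probe sets are grey.

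The largest increases were in genes of the cell surface and the matrix. Srpx, which encodes a sushi-repeat protein, read 7.54 and 9.65 in C6 slow, 278 and 341 in C6 fast, 9.66 and 14.3 in C6SPGFP slow and 189 and 182 in C6SPGFP fast cells. All 4 fast arrays stood far above all 4 slow ones, and the change was 3.77 ± 0.22 (SE), or 13.6-fold, with an adjusted p of 0.000273. Lgals3 encodes galectin 3, a lectin that binds sugar chains of matrix and surface proteins. Its signal was 19.9 and 10.8 in C6 slow, 291 and 185 in C6 fast, 7.72 and 8.60 in C6SPGFP slow and 101 and 174 in C6SPGFP fast cells. The slow arrays did not exceed 19.9 and the fast arrays did not fall below 101, a change of 3.26 ± 0.23 (adjusted p = 0.000758).

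Lama3, the alpha chain of an epithelial basement membrane laminin, read 20.8 and 20.2 in C6 slow, 334 and 518 in C6 fast, 3.23 and 0.738 in C6SPGFP slow and 32.7 and 37.4 in C6SPGFP fast cells. The C6SPGFP cells held less of it than C6 cells at either speed, and within each set the fast arrays were higher (change 3.01 ± 0.35, adjusted p = 0.00661). With a pseudocount of 32 in place of 8 that call ended (adjusted p = 0.0602). Spn encodes leukosialin, a heavily glycosylated mucin of the leukocyte surface. It was at 16.5 and 19.9 in C6 slow, 116 and 115 in C6 fast, 3.66 and 2.05 in C6SPGFP slow and 131 and 136 in C6SPGFP fast cells. The fast arrays of both sets lay between 115 and 136.5, and the slow arrays were lower in C6SPGFP than in C6 (change 2.98 ± 0.28, adjusted p = 0.00303). Of 4 microglial and haematopoietic markers tested, Ptprc, a general marker of leukocytes, among them, 0 passed in limma and 0 had an unadjusted p under 0.05. Ptprc read 28.4 and 45.2 in C6 slow, 46.9 and 47.8 in C6 fast, 42.3 and 45.1 in C6SPGFP slow and 46.2 and 48.3 in C6SPGFP fast cells, so that all 4 fast arrays were above all 4 slow ones by a narrow margin (change 0.21, adjusted p = 0.655). The part of other cells in the Spn signal was not tested.

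Ank3, which encodes ankyrin G, a linker of membrane proteins to the spectrin skeleton, was higher on 1 of its 5 tested probe sets. That probe set read 22.8 and 26.9 in C6 slow, 82.8 and 92.5 in C6 fast, 5.96 and 4.17 in C6SPGFP slow and 20.9 and 29.0 in C6SPGFP fast cells, which is higher in fast cells of each set although C6 slow and C6SPGFP fast arrays overlapped (change 1.44 ± 0.16, adjusted p = 0.00566). The other 4 had changes of 0.54, 0.75, 0.93 and 1.02, positive in each set, with adjusted p-values from 0.0519 to 0.359.

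**Figure D2:**
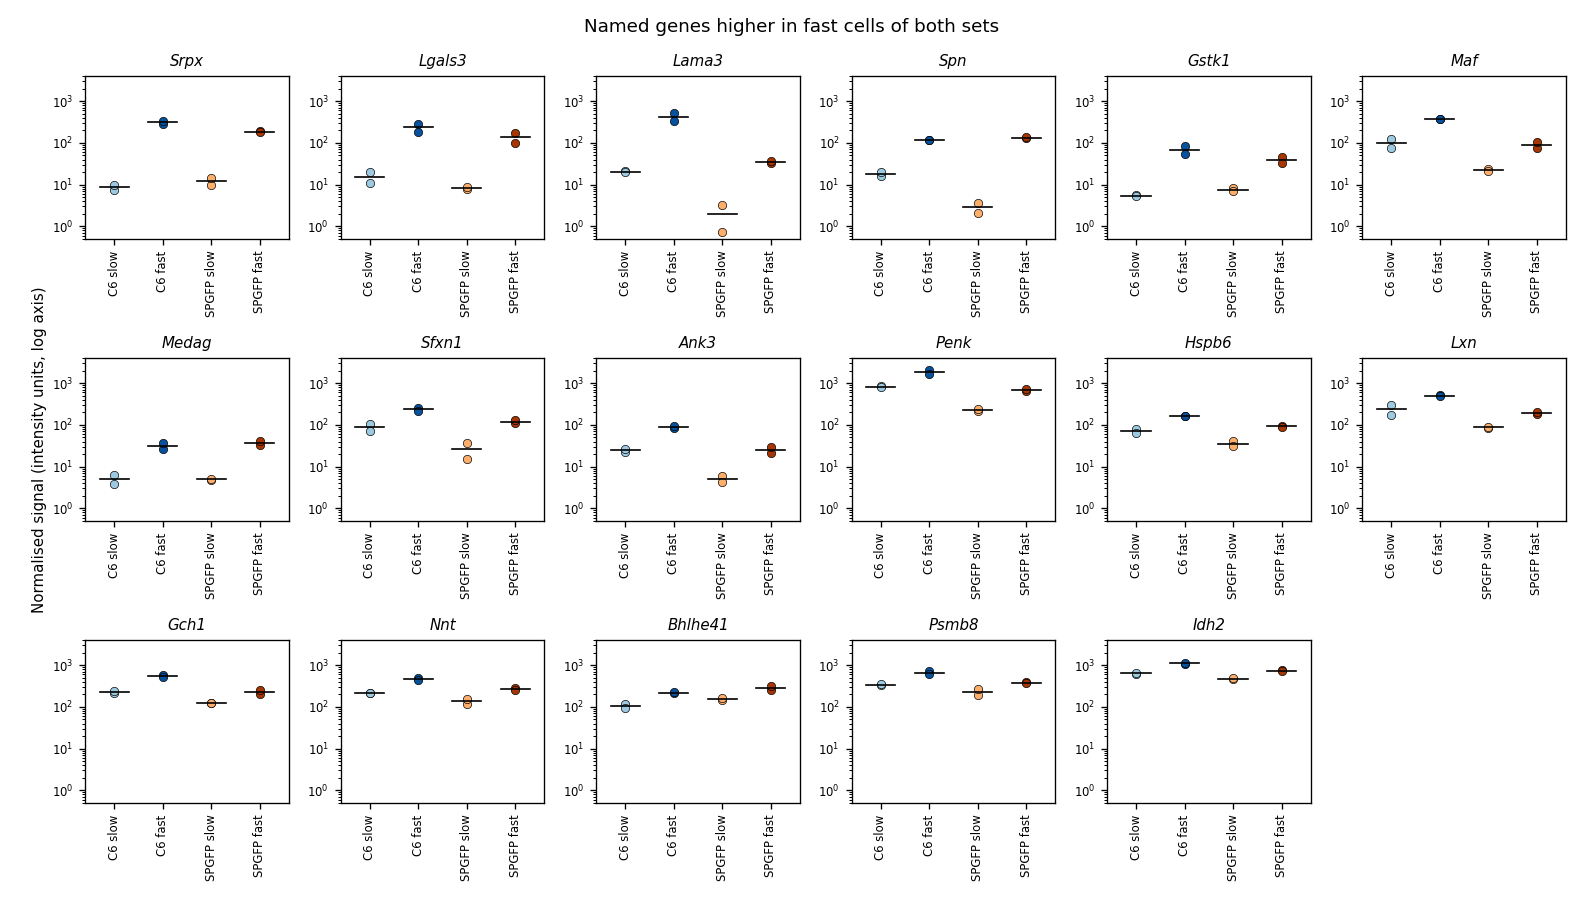
Normalised signal (log axis, intensity units) of the 17 named genes that were higher in fast cells of both sets, with a point for each array, 2 per group, and a bar for the group mean; SPGFP stands for C6SPGFP. Within each set the fast arrays lie above the slow arrays in every panel, with the widest gaps for Srpx, Lgals3, Lama3 and Spn.

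Of the called genes that encode enzymes or carriers, Gstk1, a glutathione transferase of mitochondria and peroxisomes, read 5.51 and 5.43 in C6 slow, 85.2 and 53.0 in C6 fast, 8.25 and 6.96 in C6SPGFP slow and 46.5 and 32.7 in C6SPGFP fast cells. Its slow arrays did not exceed 8.25 and the fast ones did not fall below 32.7 (change 2.04 ± 0.24, adjusted p = 0.00726). Its other probe set gave 1.04 in C6 and -0.04 in C6SPGFP and did not pass (adjusted p = 0.723). Idh2, the mitochondrial isocitrate dehydrogenase that makes NADPH, rose by less but with little spread. It read 622 and 644 in C6 slow, 1088 and 1134 in C6 fast, 455 and 481 in C6SPGFP slow and 756 and 705 in C6SPGFP fast cells (change 0.72 ± 0.09, adjusted p = 0.0112). All 4 fast arrays were above all 4 slow ones; its other probe set gave 0.75 (adjusted p = 0.114). The call ended without C6 fast replicate 1 or 2 (adjusted p from 0.051 to 0.0634).

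Nnt, the transhydrogenase of the inner mitochondrial membrane that makes NADPH from NADH, read 220.2 and 215 in C6 slow, 499 and 436 in C6 fast, 117 and 156 in C6SPGFP slow and 277 and 249 in C6SPGFP fast cells. No fast array fell to the level of a slow one (change 0.99 ± 0.13, adjusted p = 0.015). Sfxn1, a serine carrier of the same membrane, read 108 and 70.4 in C6 slow, 259.8 and 212 in C6 fast, 36.8 and 15.1 in C6SPGFP slow and 113 and 128 in C6SPGFP fast cells. Here too the groups did not overlap (change 1.67 ± 0.25, adjusted p = 0.0267), and the other probe set gave 1.27 (adjusted p = 0.191). Both calls ended in 5 of 8 runs that each left out 1 array. Those of Nnt held without C6 slow replicate 1, C6SPGFP slow replicate 2 or C6SPGFP fast replicate 2 (otherwise 0.051 to 0.0803), and those of Sfxn1 without C6 slow replicate 1 or either C6SPGFP slow array (otherwise 0.0545 to 0.113). The Sfxn1 call also ended with a pseudocount of 1 and without the filter on low signals.

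Gch1, the enzyme that starts the synthesis of tetrahydrobiopterin, the cofactor of nitric oxide synthases, read 217 and 240.4 in C6 slow, 573 and 518 in C6 fast, 123 and 124 in C6SPGFP slow and 202 and 253 in C6SPGFP fast cells on the probe set called. Fast arrays were above slow ones within each set, while C6 slow and C6SPGFP fast arrays overlapped (change 1.03 ± 0.14, adjusted p = 0.015). Its 3 other probe sets gave 1.11, 0.28 and 0.00 and none passed (adjusted p = 0.114, 0.569 and 0.997). The last 2 had opposite signs in the sets, at 0.58 in C6 and -0.02 in C6SPGFP, and at -0.43 in C6 and 0.44 in C6SPGFP. The Gch1 call ended without C6 slow replicate 2, either C6 fast array or C6SPGFP fast replicate 2 (adjusted p from 0.0639 to 0.0803).

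Among the increases, 3 probe sets carried several symbols, each a member of 1 family of glucuronosyltransferases, enzymes that attach glucuronic acid to drugs and bilirubin; which member was measured cannot be told apart. The one with the largest change read 24.1 and 5.43 in C6 slow, 137 and 204 in C6 fast, 12.7 and 5.58 in C6SPGFP slow and 42.6 and 40.0 in C6SPGFP fast cells, 2.32 ± 0.38 (adjusted p = 0.0427). Another read 165 and 68.7 in C6 slow, 394 and 401 in C6 fast, 41.3 and 40.2 in C6SPGFP slow and 114 and 131 in C6SPGFP fast cells, 1.62 ± 0.24 (adjusted p = 0.0264). The brightest read 299 and 249 in C6 slow, 577 and 721 in C6 fast, 151 and 149.8 in C6SPGFP slow and 332 and 309 in C6SPGFP fast cells, 1.13 ± 0.13 (adjusted p = 0.00566). All 3 rose in each set and at least 2-fold, and since their transcripts share sequence they are not independent.

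Over all 3878 genes tested, each taken on its brightest probe set, 15 (0.387%) rose, 7 (0.181%) fell and 503 (13.0%) had an unadjusted p under 0.05. Counts for lists are set beside these, though the lists were chosen with earlier results of these data known. Of 26 genes of oxidative stress and glutathione tested, 0 passed in limma and 7 had an unadjusted p under 0.05; Gstk1 passed on its dimmer probe set. In that list 7 (26.9%) had a positive and 4 (15.4%) a negative change in each set, beside 24.3% and 26.4% of all genes, and 15 had opposite signs. The median change was 0.14 against -0.00362 over all genes. It was not shared, at -0.05 within C6 and 0.26 within C6SPGFP. Without overlap in both sets but short of the threshold, 4 were higher, Sod1 at 0.43 (adjusted p = 0.0768), Gsta4 at 0.89 (0.0596), Gpx1 at 1.17 (0.0774) and Gstm2 at 1.24 (0.13), and 2 were lower, Prdx6 at -0.32 (0.268) and Hmox1 at -0.42 (0.354). Among all 3878 genes, called or not, 234 were higher and 225 lower without overlap in both sets. Of 25 genes listed under the tricarboxylic acid cycle and respiration, 2 rose (Idh2 and Sfxn1), beside 0.387% of all genes, and 0 fell. Sfxn1, a serine carrier, is no enzyme of that cycle or of respiration, which leaves Idh2 as the called enzyme. In this list 12 were negative and 5 positive in each set, with a median of -0.08. With arrays scaled to their trimmed means 8 were negative and 4 positive. Under the deposited scaling the counts were 0 and 10, but there the median C6SPGFP change of all probe sets was 1.04, which favours positive signs.

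Of the transcription regulators, Maf rose on 2 of 3 probe sets. Maf is a leucine zipper factor of the AP-1 superfamily. Its probe set with the largest change read 126 and 74.2 in C6 slow, 380.1 and 373 in C6 fast, 23.1 and 21.4 in C6SPGFP slow and 73.7 and 103 in C6SPGFP fast cells. The gap between slow and fast was similar in both sets, although C6SPGFP fast arrays only reached the level of C6 slow arrays (change 1.76 ± 0.19, adjusted p = 0.00445). The second probe set gave 1.45 (adjusted p = 0.00391) and the third, at 1.61 in C6 and 0.21 in C6SPGFP, did not pass (adjusted p = 0.241).

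Bhlhe41, a basic helix-loop-helix repressor of the circadian clock, read 119 and 93.5 in C6 slow, 216 and 222 in C6 fast, 145 and 164 in C6SPGFP slow and 256 and 319 in C6SPGFP fast cells. All 4 fast arrays exceeded all 4 slow ones (change 0.93 ± 0.14, adjusted p = 0.0267). Id3, chosen after its values were seen because it was the only called gene outside the rule for naming, encodes a helix-loop-helix protein without a DNA-binding region that holds such factors off DNA. Its called probe set read 959 and 861 in C6 slow, 1822 and 1519 in C6 fast, 379 and 386 in C6SPGFP slow and 661 and 599 in C6SPGFP fast cells (change 0.79 ± 0.10, adjusted p = 0.0123), and the other gave 0.85 (adjusted p = 0.0775). Fast arrays were higher within each set, and C6SPGFP fast arrays were lower than C6 slow arrays. The Bhlhe41 call held only without C6 slow replicate 1 or C6SPGFP fast replicate 1 and ended in the other 6 runs (adjusted p from 0.059 to 0.105).

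Promoters were read for called genes that rose or fell together, and 23 of the 27 genes had an entry in the RefSeq promoter table of build GRCr8, which spans 250 bases before to 50 after a gene's start. On either strand, the E-box CACGTG, the letters that factors of the Bhlhe41 class bind, was found in 2 of 15 rising and 0 of 8 falling genes, and in 6.65% of all 27457 promoters. The 2 were Bhlhe41 itself and Nnt. The GC box GGGCGG was found in 10 of 15 and 5 of 8 (34.9% of all), CCAAT in 9 of 15 and 2 of 8 (37.7%), TATAAA in 1 of 15 and 1 of 8 (14.3%) and TGANTCA, the letters of an AP-1 site, in 1 of 15 and 0 of 8 (7.33%). A match is a run of letters and not a shown binding site. The promoters of Bhlhe41 and Nnt are given with the E-box in capitals, and that of Srpx, the gene with the largest change, with its GC box in capitals, all 5′ to 3′ on the gene's strand.
Bhlhe41, chr4:180569306-180569605, minus strand: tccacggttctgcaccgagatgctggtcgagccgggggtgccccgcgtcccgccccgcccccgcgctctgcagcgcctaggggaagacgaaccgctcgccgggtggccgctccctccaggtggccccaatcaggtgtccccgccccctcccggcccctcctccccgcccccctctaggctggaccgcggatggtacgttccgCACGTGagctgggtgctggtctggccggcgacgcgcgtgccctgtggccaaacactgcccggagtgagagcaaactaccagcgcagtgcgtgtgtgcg
Nnt, chr2:53237261-53237560, minus strand: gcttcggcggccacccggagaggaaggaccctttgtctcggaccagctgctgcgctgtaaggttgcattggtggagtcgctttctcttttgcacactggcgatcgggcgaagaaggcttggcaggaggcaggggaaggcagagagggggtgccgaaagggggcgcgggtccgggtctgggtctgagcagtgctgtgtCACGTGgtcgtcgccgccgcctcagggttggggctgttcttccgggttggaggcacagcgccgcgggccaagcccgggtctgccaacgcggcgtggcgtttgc
Srpx, chrX:15349354-15349653, plus strand: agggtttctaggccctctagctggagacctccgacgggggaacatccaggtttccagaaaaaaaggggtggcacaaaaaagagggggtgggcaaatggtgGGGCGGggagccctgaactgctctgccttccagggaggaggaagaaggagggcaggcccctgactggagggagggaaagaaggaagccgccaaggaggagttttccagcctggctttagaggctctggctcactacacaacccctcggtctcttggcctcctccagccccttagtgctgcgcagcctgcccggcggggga

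The remaining increases had varied roles. Penk, which encodes the precursor of the enkephalin opioid peptides, was bright in all groups, at 855 and 806 in C6 slow, 2055 and 1619.6 in C6 fast, 221 and 244 in C6SPGFP slow and 655 and 710.5 in C6SPGFP fast cells. Its fast arrays were above the slow ones within each set, and C6 slow arrays were above C6SPGFP fast arrays (change 1.33 ± 0.13, adjusted p = 0.00303). Hspb6, a small heat shock protein of muscle and brain, read 80.2 and 62.8 in C6 slow, 162 and 166 in C6 fast, 40.2 and 31.4 in C6SPGFP slow and 94.5 and 90.5 in C6SPGFP fast cells, with all fast arrays above all slow arrays (change 1.16 ± 0.14, adjusted p = 0.00875). Its other probe set gave 0.91 (adjusted p = 0.11). Medag, a gene of fat cell differentiation, read 3.86 and 6.20 in C6 slow, 26.6 and 35.9 in C6 fast, 4.81 and 5.10 in C6SPGFP slow and 33.2 and 41.5 in C6SPGFP fast cells. The 4 slow arrays did not exceed 6.20 and the 4 fast ones did not fall below 26.6 (change 1.69 ± 0.17, adjusted p = 0.00391).

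Lxn encodes latexin, an inhibitor of carboxypeptidases, and read 297 and 173 in C6 slow, 525 and 481 in C6 fast, 83.0 and 90.5 in C6SPGFP slow and 182 and 206 in C6SPGFP fast cells (change 1.11 ± 0.17, adjusted p = 0.0285). Psmb8, a catalytic subunit of the immunoproteasome, read 333 and 352 in C6 slow, 729 and 599.6 in C6 fast, 188 and 269 in C6SPGFP slow and 386 and 372 in C6SPGFP fast cells (change 0.83 ± 0.14, adjusted p = 0.0489). For Psmb8 all fast arrays exceeded all slow arrays, and for Lxn they did so within each set only. Each call ended in 7 of 8 runs that left out an array. That of Lxn held without C6 slow replicate 1 (otherwise 0.0585 to 0.123) and that of Psmb8 without C6SPGFP slow replicate 2 (otherwise 0.108 to 0.157). The Psmb8 call also ended with a pseudocount of 1, without the filter and without a trend in the moderation. Of 15 interferon and antigen presentation genes tested 1 rose, Psmb8, and 0 fell (0.387% and 0.181% of all genes), with a median change of 0.07. Psmb9, another immunoproteasome subunit (0.86, adjusted p = 0.0559), and Tap2, a subunit of the peptide transporter (0.89, adjusted p = 0.098), were higher without overlap in both sets but did not pass.

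Of the named genes that were lower in fast cells, Igfbp5, which binds insulin-like growth factors, shared the lowest adjusted p with Vgll3. It read 47.1 and 47.4 in C6 slow, 6.44 and 5.51 in C6 fast, 31.8 and 41.2 in C6SPGFP slow and 3.67 and 7.89 in C6SPGFP fast cells. All fast arrays were under 8 and all slow arrays above 31 (change -1.84 ± 0.18, adjusted p = 0.00303). A second probe set gave -1.54 and passed (adjusted p = 0.0463), and another stayed below the filter at a mean signal of 1.82. Vgll3, a cofactor of TEAD transcription factors, read 122 and 111 in C6 slow, 40.3 and 26.8 in C6 fast, 143 and 119.6 in C6SPGFP slow and 40.9 and 37.0 in C6SPGFP fast cells. The fall was of nearly equal size in both sets, -1.60 in C6 and -1.56 in C6SPGFP (change -1.58 ± 0.15, adjusted p = 0.00303). These 2 calls held in all 8 runs that left out an array.

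Gper1, a membrane receptor for estrogen that couples to G proteins, read 136 and 141 in C6 slow, 7.18 and 11.7 in C6 fast, 179 and 189.8 in C6SPGFP slow and 87.2 and 48.7 in C6SPGFP fast cells. Its fall was deeper in C6 (change -2.24 ± 0.34, adjusted p = 0.0269). Adm, the precursor of the vasodilator peptide adrenomedullin, read 124 and 96.0 in C6 slow, 45.9 and 19.7 in C6 fast, 118 and 128 in C6SPGFP slow and 47.9 and 58.8 in C6SPGFP fast cells (change -1.35 ± 0.23, adjusted p = 0.0496). In both genes all 4 fast arrays lay below all 4 slow arrays. The Gper1 call held without C6SPGFP slow replicate 1 or C6SPGFP fast replicate 1 and ended in the other 6 runs (adjusted p from 0.053 to 0.113), and that of Adm held only without C6 fast replicate 2 (otherwise 0.0903 to 0.157). Both calls also ended with a pseudocount of 1 and without the filter, and that of Adm without the trend.

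Tnc encodes tenascin C, a matrix glycoprotein of developing brain and of gliomas. It read 453 and 945 in C6 slow, 216 and 238 in C6 fast, 678 and 571 in C6SPGFP slow and 240.0 and 205 in C6SPGFP fast cells. The C6 slow arrays differed most between replicates, yet all 4 fast arrays were lower than all slow arrays (change -1.48 ± 0.21, adjusted p = 0.0204). Its 2 other probe sets also had negative changes in each set, -0.57 and -0.53, without passing (adjusted p = 0.182 and 0.241). Cyfip2, a subunit of the WAVE complex that starts actin branches, read 46.6 and 53.2 in C6 slow, 23.3 and 12.1 in C6 fast, 98.4 and 113 in C6SPGFP slow and 51.2 and 53.6 in C6SPGFP fast cells (change -1.06 ± 0.18, adjusted p = 0.0463). Within each set it was lower in fast cells, and C6SPGFP fast arrays were at the level of C6 slow arrays. The Tnc call held without C6 slow replicate 1 or 2 only (otherwise 0.0524 to 0.101). The Cyfip2 call ended in all 8 runs (adjusted p from 0.0692 to 0.161), with a pseudocount of 1 and without the filter.

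Cnp, a myelin enzyme of oligodendrocytes and Schwann cells, read 386 and 516 in C6 slow, 97.0 and 81.0 in C6 fast, 1199 and 1292 in C6SPGFP slow and 647 and 655 in C6SPGFP fast cells. It fell within each set, though C6SPGFP fast arrays stayed above C6 slow arrays (change -1.58 ± 0.25, adjusted p = 0.0351). The summed signal of the 8 oligodendroglial and Schwann markers, Cnp included, was 1839 to 2311 in C6 slow, 1311 to 1488 in C6 fast, 4724 to 4780 in C6SPGFP slow and 2969 to 3619 in C6SPGFP fast cells; its part in the change was not tested. Lipa, the acid lipase of lysosomes, fell on 2 of 3 probe sets. The one with the largest change read 283 and 209 in C6 slow, 64.6 and 56.6 in C6 fast, 254 and 297 in C6SPGFP slow and 135 and 134 in C6SPGFP fast cells (change -1.43 ± 0.20, adjusted p = 0.0205), a second gave -1.26 (adjusted p = 0.00952), and the third gave -1.21 without passing (adjusted p = 0.13). Ddah1, which breaks down a natural inhibitor of nitric oxide synthases, read 390.1 and 390.1 in C6 slow, 116 and 127 in C6 fast, 339.5 and 350.1 in C6SPGFP slow and 197 and 202 in C6SPGFP fast cells (change -1.19 ± 0.18, adjusted p = 0.0267). Its other, brighter probe set gave -1.07 and did not pass (adjusted p = 0.189). There the change was -1.89 in C6 but -0.24 in C6SPGFP (limma adjusted p of the difference 0.00325). The Cnp call held without C6SPGFP slow replicate 1 or C6SPGFP fast replicate 1 (otherwise 0.0618 to 0.138) and ended without the filter or without the trend. That of Lipa held without C6 slow replicate 1, C6SPGFP slow replicate 1 or C6SPGFP fast replicate 1 (otherwise 0.0511 to 0.101), and that of Ddah1 without C6SPGFP slow replicate 1 only (otherwise 0.0524 to 0.11).

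**Figure D3:**
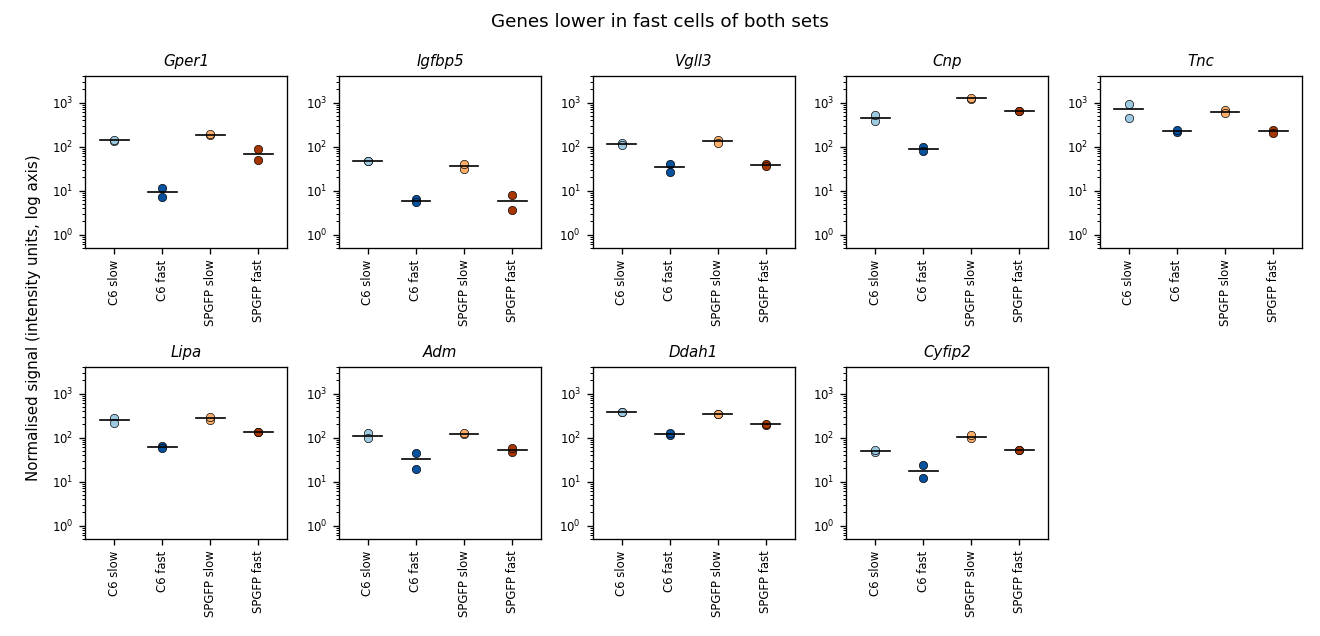
Normalised signal (log axis, intensity units) of the 9 genes that were lower in fast cells of both sets, with a point for each array, 2 per group, and a bar for the group mean; SPGFP stands for C6SPGFP. Fast arrays lie below slow arrays within each set in every panel; for Cnp the C6SPGFP fast arrays lie above the C6 slow arrays.

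A further 2 called decreases had no gene name in the probe table used. One read 413 and 221 in C6 slow, 14.4 and 7.68 in C6 fast, 330.1 and 345 in C6SPGFP slow and 90.8 and 102 in C6SPGFP fast cells, a change of -2.89 ± 0.44 (adjusted p = 0.027), and the other 44.5 and 48.8 in C6 slow, 3.14 and 3.52 in C6 fast, 463 and 419 in C6SPGFP slow and 150.1 and 117 in C6SPGFP fast cells, a change of -1.97 ± 0.17 (adjusted p = 0.0026). Both fell at least 2-fold in each set. Pkia, an inhibitor of protein kinase A, came next in order of p among decreases with a single symbol. It read 101 and 97.8 in C6 slow, 21.1 and 11.5 in C6 fast, 124 and 124 in C6SPGFP slow and 62.7 and 65.8 in C6SPGFP fast cells and did not pass (change -1.52 ± 0.27, adjusted p = 0.055); its 2 other probe sets gave -0.79 and -1.83 (adjusted p = 0.0681 and 0.0926).

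The size of a shared change was next compared between the sets, by the contrast of the 4 group means. Of 6684 probe sets, 255 (3.82%) differed in their change between the sets, and 5 of the 35 called ones did (14.3%). The added 8 narrows changes between dim signals, so each difference was also taken with a pseudocount of 1 or 32, chosen after seeing the data. Spn rose more in C6SPGFP (2.24 in C6 and 3.71 in C6SPGFP, adjusted p of the difference 0.0263; 0.0124 with a pseudocount of 1, 0.092 with 32). For Lama3 the values were 3.90 in C6 and 2.12 in C6SPGFP (adjusted p of the difference 0.0355), but with a pseudocount of 1 they were 4.28 and 3.73 and the difference did not pass (adjusted p = 0.739); the ratio of its group means was 20.8 in C6 and 17.7 in C6SPGFP. Gper1 (-3.08 in C6 and -1.39 in C6SPGFP, 0.0491) and Cnp (-2.23 in C6 and -0.93 in C6SPGFP, 0.0243) fell more in C6, as did 1 of the unnamed probe sets (-4.05 in C6 and -1.73 in C6SPGFP, 0.0198). All 3 passed with a pseudocount of 1, and with 32 only Cnp did (adjusted p = 0.0399, against 0.147 for Gper1 and 0.0656 for the unnamed one). The change was the larger one in C6 for 16 of the 22 increases and 13 of the 13 decreases, beside 59.3% of all probe sets positive and 56.6% of all negative in both sets. With a pseudocount of 1 these counts were 14 and 13, and with 32 they were 18 and 11.

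Taken within each set by its own contrast, 445 probe sets (6.66%) passed in C6 and 93 (1.39%) in C6SPGFP. Of the 35 shared ones 20 passed in both sets alone and 15 in C6 alone only. For Lgals3 the changes were 3.39 in C6 and 3.12 in C6SPGFP, for Maf 1.87 in C6 and 1.66 in C6SPGFP and for Tnc -1.50 in C6 and -1.45 in C6SPGFP. With at least 2-fold change and no overlap in each set, 24 probe sets (0.359%) were higher and 8 (0.12%) lower, whether or not they were called; 16 and 7 of these were among the 35.

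**Figure D4:**
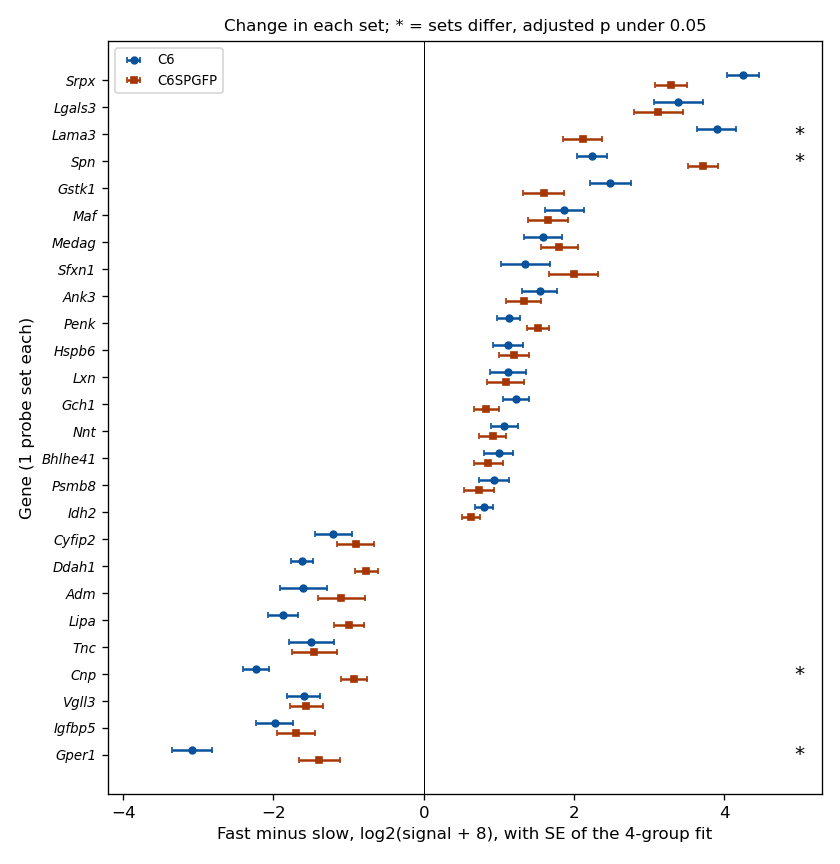
Fast minus slow change on the log2(signal + 8) scale in C6 (circles) and in C6SPGFP (squares) for the 26 called genes named by rule, with bars for the SE of the 4-group fit, 2 arrays per group. An asterisk marks the 4 genes, Lama3, Spn, Cnp and Gper1, whose change differed between the sets at an adjusted p under 0.05 on this scale. With a pseudocount of 1 Lama3 did not, and with 32 Spn and Gper1 did not.

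S100b, a calcium-binding protein of glia, was not called, and its change differed between the sets. It read 421 and 395 in C6 slow, 56.8 and 75.0 in C6 fast, 1221 and 1230.0 in C6SPGFP slow and 1275 and 1247 in C6SPGFP fast cells. C6 fast cells were far below C6 slow cells and C6SPGFP cells did not follow (adjusted p of the difference 0.000433), and the shared change of -1.23 ± 0.44 did not pass (adjusted p = 0.29). A second, dimmer probe set of S100b gave -0.19 in C6 and -0.06 in C6SPGFP, a difference of 0.13 (adjusted p = 0.903), and so did not show the fall in C6. In a fit of 4 group means, which takes no account of how unlike the 2 changes are, 129 probe sets (1.93%) were higher and 123 (1.84%) lower on the mean with the same sign in both sets, and all 35 were among these 252. Of the 252, 50 changed at least 2-fold in C6 but under 1.2-fold in C6SPGFP, and 10 the other way round.

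Gene lists were described by how many members had the same direction in both sets. They were chosen with earlier results of these data known, so the counts describe a list and do not test it. Over the 3878 genes tested, 944 (24.3%) were positive and 1025 (26.4%) negative in each set. Of 21 proliferation genes, 12 (57.1%) were positive and 0 negative in each set, with a median change of 0.19, and 0 passed the limma test, while 7 had an unadjusted p under 0.05 (13.0% of all genes did). The thymidylate synthase Tyms was at 0.63 (adjusted p = 0.139), the phosphatase Cdc25b at 0.48 (0.171) and the topoisomerase Top2a at 0.32 (0.17). With the arrays scaled to their trimmed means instead, 13 were positive and 1 negative. Under the deposited scaling the counts were 14 and 0, but there the median C6SPGFP change of all probe sets was 1.04, which favours positive signs.

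Of 15 lysosomal genes, 9 (60%) were negative and 1 positive in each set, with a median change of -0.14. Lipa alone passed (0.181% of all genes fell); the cathepsins Ctsd (-0.44) and Ctsh (-0.37) and the membrane protein Lamp1 (-0.36) did not (adjusted p = 0.224, 0.335 and 0.323). Scaled to the trimmed means 10 were negative and 1 positive. Under the deposited scaling 0 were negative and 3 positive. That scaling moved the median of all probe sets to 0.491, and to 1.04 within C6SPGFP, so few genes of any list could be negative in both sets. The median of the lysosomal list minus that of all probe sets was then -0.09. Of 34 actin and contractility genes 12 (35.3%) were negative and 5 (14.7%) positive in each set; Ank3 rose on 1 probe set and 0 fell. Under the deposited scaling those counts were 0 and 9, with the same limit.

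Of 8 oligodendroglial and Schwann genes 3 were negative and 0 positive in each set. The other 5, Pmp22, Mag, Gjb1, Mog and Mbp, had opposite signs in the 2 sets. Cnp fell, Sox10 was at -5.00 in C6 and -0.38 in C6SPGFP (shared change -2.69, adjusted p = 0.21), and Erbb3 was at -1.03 and -0.84 (shared change -0.93, adjusted p = 0.241). Of 8 astroglial genes 4 were negative and 0 positive in each set, and the other 4 had opposite signs in the 2 sets. In limma 0 passed and 5 had an unadjusted p under 0.05 (13.0% of all genes did). The median change of this list was not shared, at -0.88 within C6 and 0.004 within C6SPGFP. Under the deposited scaling 0 members of these 2 lists were negative in both sets, but that scaling raised the C6SPGFP changes of all probe sets and so is no check on them. Of 29 matrix genes 2 rose (Srpx and Lama3), and Tnc fell on a probe set other than its brightest. Of 25 adhesion and surface genes 2 rose (Lgals3 and Spn) and 0 fell, beside 0.387% and 0.181% of all genes. Srpx, Lgals3 and Spn were known from earlier results of these data when the lists were made, so these counts are no test of either list. The 26 proteases and inhibitors, 24 chemokines and cytokines, 19 genes of sterol and fatty acid synthesis, 16 of glycolysis and 32 cytosolic ribosomal protein genes had 0 called members in limma and 5, 3, 3, 2 and 2 members with an unadjusted p under 0.05. An unadjusted p under 0.05 was reached by 851 of all 6684 probe sets, of which 389 were higher and 412 lower with the same sign in both sets.

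**Figure D5:**
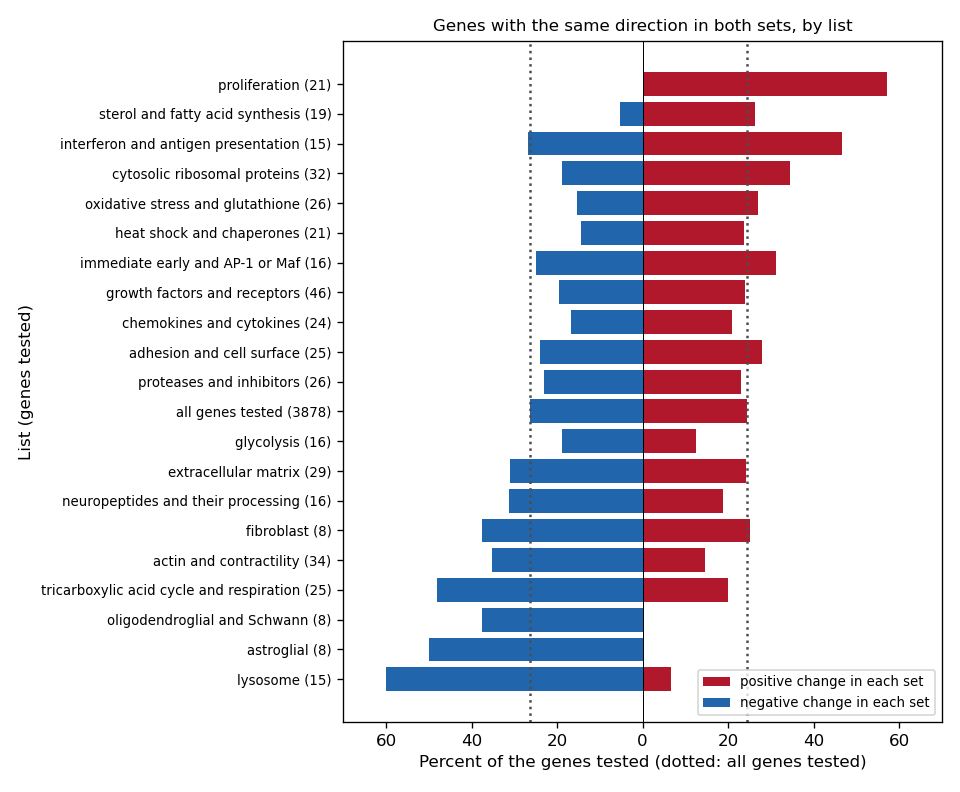
Percent of each list's tested genes with a positive change in both sets (red, to the right) and with a negative change in both sets (blue, to the left), for lists with at least 8 genes tested; the number tested stands in parentheses and the dotted lines mark the shares over all 3878 genes. Proliferation genes stand at 57.1% positive with none negative, and lysosomal genes at 60% negative. Under the deposited scaling the lysosomal share is 0, but there the median C6SPGFP change of all probe sets is 1.04, so that 0 is no check on the list.

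Each of 12 named genes kept its call when any 1 of the 8 arrays was left out: Srpx, Lgals3, Lama3, Spn, Gstk1, Maf, Medag, Ank3, Penk and Hspb6 among the increases, and Igfbp5 and Vgll3 among the decreases. Across those runs the change lay between 3.59 and 3.96 for Srpx (adjusted p at most 0.00483), between 3.12 and 3.39 for Lgals3 (at most 0.00765) and between -1.67 and -1.49 for Vgll3 (at most 0.0211). For the other 14, the adjusted p passed 0.05 when some array or arrays were omitted, as given with each gene, and the direction stayed the same.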

How the data were processed

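Each of 8 samples of total RNA was measured on 1 array, and the authors deposited 1 linear intensity per probe set. No source used here names the software behind it. The members and gene lists were chosen with earlier results of these data known. Deposited intensities were quantile normalised, since 1 array was scaled 5-fold above the others, and taken as log2(signal + 8). Of the 8740 probe sets other than controls, 2056 with a mean signal under 8 were left out. limma 3.58.1 in R 4.3.3 fitted speed and set with lmFit and eBayes (trend, 5 residual and 3.88 prior degrees of freedom), and p-values were adjusted by Benjamini-Hochberg over the 6684 tested. A probe set was called at an adjusted p under 0.05 with the same sign in both sets. Changes within a set and their difference came from a fit of 4 group means. The 2 arrays per group limit the precision.

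Genes were named from a probe table through current gene identifiers. Named were up to 15 called genes per direction with 1 symbol and no overlap within each set, up to 2 called members per direction of each of 23 lists, filled to 10 per direction by the smallest p, and Vim, S100b, Cnp, Lgals3, Srpx and Spn. A gene's probe set is the one with the largest change, and in lists the brightest. The code recovered large known changes in simulated data, planted only in bright probe sets and without a difference in level between the sets. Dim probe sets were not covered by that check.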

Additional observations from a re-analysis of the deposited data

Results flagged for a closer look

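Of the named genes, each on 1 probe set, 5 had a change with speed that differed between the sets in limma's fit of 4 group means. The same held for 1 called probe set without a gene name. Ddah1 is not counted, but its other, brighter probe set differed by 1.65 in that fit (adjusted p = 0.00325). Each value is the C6SPGFP change minus the C6 change on the log2(signal + 8) scale. Spn rose more in C6SPGFP, by 1.47 (adjusted p = 0.0263), but by 0.69 with a pseudocount of 32, which did not pass (adjusted p = 0.092). Lama3 gave -1.78 (adjusted p = 0.0355), but -0.55 with a pseudocount of 1 (adjusted p = 0.739) and -2.12 with 32 (adjusted p = 0.00373), so that its difference rests on the value added. Gper1, at 1.69 (adjusted p = 0.0491), and Cnp, at 1.31 (adjusted p = 0.0243), fell less in C6SPGFP. With a pseudocount of 32 Cnp still passed (adjusted p = 0.0399) and Gper1 did not (adjusted p = 0.147). The unnamed probe set also fell less, by 2.32 (adjusted p = 0.0198), and did not pass with a pseudocount of 32 (adjusted p = 0.0656). S100b, which was not called, differed by 2.55 (adjusted p = 0.000433). Its second probe set gave 0.13 (adjusted p = 0.903).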

How the results depend on the processing

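Of 22 higher and 13 lower probe sets, scaling to the trimmed mean gave 26 and 14, and the deposited scaling, under which 1 array keeps its 5-fold scale, gave 10 and 0. A pseudocount of 1 gave 8 lower, no filter 7 lower, a fit of 4 group means 129 higher and 123 lower, and an adjusted p under 0.1 gave 51 and 29. By 2 rules chosen after seeing the data, passing in each set alone left 14 and 6, and at least 2-fold in each set left 7 lower. Leaving out 1 array gave 12 to 22 higher and 3 to 9 lower, the lowest without C6 fast replicate 1. With the replicate number as a block in limma, 18 were higher and 5 lower, and 9 of 26 named genes lost the call (adjusted p from 0.0512 to 0.095). Replicate deviations correlated from -0.127 to 0.266 between groups. The value was 0.266 for C6 fast with C6 slow and 0.104 for C6SPGFP fast with C6SPGFP slow. With 1 difference per group these values cannot decide whether a replicate number pairs samples, and the labels do not say. No named gene reversed. All 26 kept the call under trimmed scaling, 5 under the deposited scaling (0.199 to 0.773 for those lost), 21 with a pseudocount of 1 (Sfxn1, Gper1, Adm, Cyfip2 and Psmb8 lost it, 0.0516 to 0.0597), 25 with 32 (Lama3 lost it), 20 without a filter (those 5 and Cnp, 0.052 to 0.092) and 23 without a trend (Cnp, Adm and Psmb8, 0.0599 to 0.0726). With the block Lxn, Bhlhe41, Gper1, Cnp, Lipa, Adm, Ddah1, Cyfip2 and Psmb8 lost it. The cause of these shifts was not tested beyond the settings named.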

Other observations

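Several genes were higher in fast cells of both sets at least 2-fold without overlap but missed the threshold; they were chosen after their values were seen. Jup encodes plakoglobin, a junction protein that links cadherins to the cytoskeleton. Its signal was 12.2 and 17.6 in C6 slow, 144 and 145 in C6 fast, 8.25 and 36.7 in C6SPGFP slow and 56.0 and 76.7 in C6SPGFP fast cells (log2 change 2.10 ± 0.36, SE, limma adjusted p = 0.0513).

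Aqp1, a water channel, read 22.3 and 75.7 in C6 slow, 96.5 and 154 in C6 fast, 7.56 and 7.40 in C6SPGFP slow and 189 and 184 in C6SPGFP fast cells. All 4 fast arrays were above all 4 slow ones, and the 2 C6 slow arrays differed from each other by more than the 2 of any other group in ratio (change 2.51 ± 0.48, adjusted p = 0.0695). Sfrp4, a secreted inhibitor of Wnt ligands, gave 1.89 ± 0.40 (adjusted p = 0.0984), with C6SPGFP slow arrays at 23.9 and 1.10.

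Gpx1, a glutathione peroxidase, was higher on both of its probe sets, by 1.17 and 1.25 (adjusted p = 0.0774 and 0.149). Among decreases, Nkx6-1, a homeodomain factor of the developing neural tube, was at -1.17 in C6 and -1.13 in C6SPGFP (adjusted p = 0.0727). Rhob, a small GTPase of endosomes and the actin skeleton, was at -1.80 in C6 and -0.56 in C6SPGFP (shared change -1.18, adjusted p = 0.0926). Its change differed between the sets (limma adjusted p of the difference 0.0381). Nrp1, a receptor for semaphorins and vascular growth factors, was at -1.14 in C6 and -0.47 in C6SPGFP (shared change -0.81, adjusted p = 0.0831).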
